A study of Mus musculus with 36 samples.

Results

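Gja1 and Dsp encode proteins of the junctions that join heart muscle cells. Their loci were taken as every region of the deposited accessibility table that overlaps a window on chromosome 10 from 56070000 to 56140000 (Gja1, about 56097000 to 56110000) or on chromosome 13 from 38210000 to 38320000 (Dsp, about 38243500 to 38291000), in mouse build mm9. This gave 208 regions, 84 at Gja1 and 124 at Dsp, of 1393120 in the table. Position alone chose them, and the gene bounds are approximate. Kilobase distances below run from the approximate gene start to the centre of a region, with negative values before the gene. By gene order in RefSeq, the coding genes on either side are Msl3l2 and Hsf2 for Gja1, and Riok1 and Snrnp48 for Dsp.

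The assay was ATAC-seq, which reads where a transposase can insert adapters into open chromatin, during direct reprogramming of mouse heart fibroblasts towards a cardiomyocyte-like state. All 6 groups analysed, of 3 libraries each, came from neonatal hearts of the Cd-1 strain carrying alpha-MHC-GFP, a reporter driven by a cardiac myosin promoter, and began as sorted Thy1-positive, GFP-negative cells that the labels call mostly fibroblasts. The 5 GMT groups received Gata4, Mef2c and Tbx5 (GMT), the cardiac transcription factors of this protocol, by retrovirus, were given sb431542 and xav939, which inhibit TGF-beta and Wnt signalling, and were sorted as GFP-positive at days 2, 3, 7, 14 or 21. The fibroblast group was infected with dsRed, was given no inhibitor and was sorted as dsRed-positive at day 7. Between GMT cells and fibroblasts, factors, inhibitors and sort differ at once and cannot be told apart. At every day except 7, the time in culture differs too. The sort on the reporter keeps only GMT cells in which that promoter is active. All 5 comparisons share the same 3 fibroblast libraries. The labels state biological replicates but not whether they came from separate litters, and name 2 sequencing cores with no list of the libraries each one ran, so a core effect and a group difference cannot be told apart. The cell types were not checked here against marker genes, because no annotation of build mm9 was used.

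Gja1 encodes connexin 43, the main gap junction channel protein of the working heart muscle, which lets current pass between neighbouring cells and is also made by cardiac fibroblasts. Dsp encodes desmoplakin, which ties the desmosome, the adhesive junction of the intercalated disc and of epithelia, to the intermediate filaments inside the cell. Open promoters and enhancers are the stretches of a locus at which a transposase inserts most often.

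The promoters themselves are shown because the most accessible regions of both loci lie over the gene starts. The sequences are the 250 bases before the annotated start on the plus strand, from RefSeq (build GRCm38.p6), with matches to the motifs searched in capitals. Both strands were searched for letters known to be bound by the delivered factors, which are AGATAA for GATA factors, AGGTGT for T-box factors and the palindromic pattern of MEF2 factors. Letters of factors active in fibroblasts were searched too, with TGANTCA taken for AP-1 and then GGAATG for TEAD. No match overlapped another. The build differs from that of the regions, so no position was carried over.
Gja1: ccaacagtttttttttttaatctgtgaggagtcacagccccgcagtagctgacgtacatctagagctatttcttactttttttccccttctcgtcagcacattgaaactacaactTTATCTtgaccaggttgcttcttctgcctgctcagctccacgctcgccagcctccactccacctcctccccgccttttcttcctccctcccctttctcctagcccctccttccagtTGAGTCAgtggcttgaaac
Dsp: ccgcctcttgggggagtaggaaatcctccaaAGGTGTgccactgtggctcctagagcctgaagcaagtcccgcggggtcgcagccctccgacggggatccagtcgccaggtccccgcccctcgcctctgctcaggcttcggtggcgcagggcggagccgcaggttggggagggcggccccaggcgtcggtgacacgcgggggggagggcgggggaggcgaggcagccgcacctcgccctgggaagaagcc
The Gja1 sequence held 1 GATA match on the reverse strand, with its first base 135 bases before the start, and 1 AP-1 match 19 bases before it. The Dsp sequence held 1 T-box match, 219 bases before the start. Of 32544 RefSeq promoters, 9.97% held the GATA letters, 6.73% the AP-1 letters and 11.9% the T-box letters within the same window. Neither sequence held the MEF2 letters (3.22% of promoters) or the TEAD letters (12.6%). The Dsp promoter was rich in G and C, at 72.4%, with 22 CpG pairs, while the Gja1 promoter had 50% and 6, near the medians of all promoters (52.4% and 6). A match to letters describes the sequence and does not show binding.

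Library totals ran from 2.29 to 23.2 M counts, of which the single largest region of each library held between 4.52 and 49.4%. Levels are therefore given as CPM, the counts scaled to a common total, over effective library sizes from trimmed means (TMM). The fibroblast libraries had scaling factors of 0.632, 0.638 and 1.19 in order of replicate number, and replicates 1 and 2 were the 2 most alike libraries of any group. Of 1393120 regions, 144810 had enough counts to be tested, with a biological coefficient of variation of 23.8%. In bulk data, fewer cells with an open region and less opening per cell cannot be told apart.

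The filter on low counts passed 13 of 84 Gja1 regions and 26 of 124 Dsp regions. These carried 79.0% of the counts in the Gja1 window and 87.9% in the Dsp window. Their median widths were 1742 and 1655.5 bases, against 312 and 277 bases for the regions that did not pass, none of which averaged over 0.679 CPM. The filter's level was 1.15 CPM over unscaled library totals. After TMM scaling, all 3 fibroblast libraries were under it in 13 of the 26 tested Dsp regions. The same held in 1 of the 13 tested Gja1 regions. On the unscaled totals that the filter used, the Dsp regions at 27.7 and 48.4 kb were under it too. That at 40.8 kb was not under it in fibroblast replicate 3. Regions under the filter's own level in all fibroblast libraries passed only through the GMT groups. Some of their GMT libraries therefore had to be above all fibroblast libraries, which biased them towards a rise without fixing a call. The counts below thus describe the regions tested and are not a measure of all 208.

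The start regions of the loci moved in opposite directions. The Dsp locus became more accessible in GMT cells at every time, over its start, within the gene and on both sides of it, whereas the region over the Gja1 start became less accessible. A test of each region with edgeR's quasi-likelihood method, called under a Benjamini-Hochberg adjusted p of 0.05 over all 144810 regions, gave 16 higher and 1 lower of the 26 Dsp regions for the mean of the 5 GMT times over fibroblasts. Over all regions, 16.5% were called higher and 14.9% lower in that comparison. At Gja1, 0 of 13 regions were called higher and 3 were called lower. The median log2 fold change was 1.41 over the tested Dsp regions and -0.50 over the tested Gja1 regions, against 0.013 over all regions tested. Of the Dsp regions, 24 of 26 had a positive value, and of the Gja1 regions 12 of 13 had a negative one. Since many of these Dsp regions could pass only through GMT cells, these counts and medians do not bear on the direction of the locus. When low counts were left in, 15 of all 124 Dsp regions were called higher and 2 lower, and 0 of all 84 Gja1 regions were called. With that setting, 19973 of 1391749 regions over the whole table were called higher and 7045 lower.

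**Figure D1:**
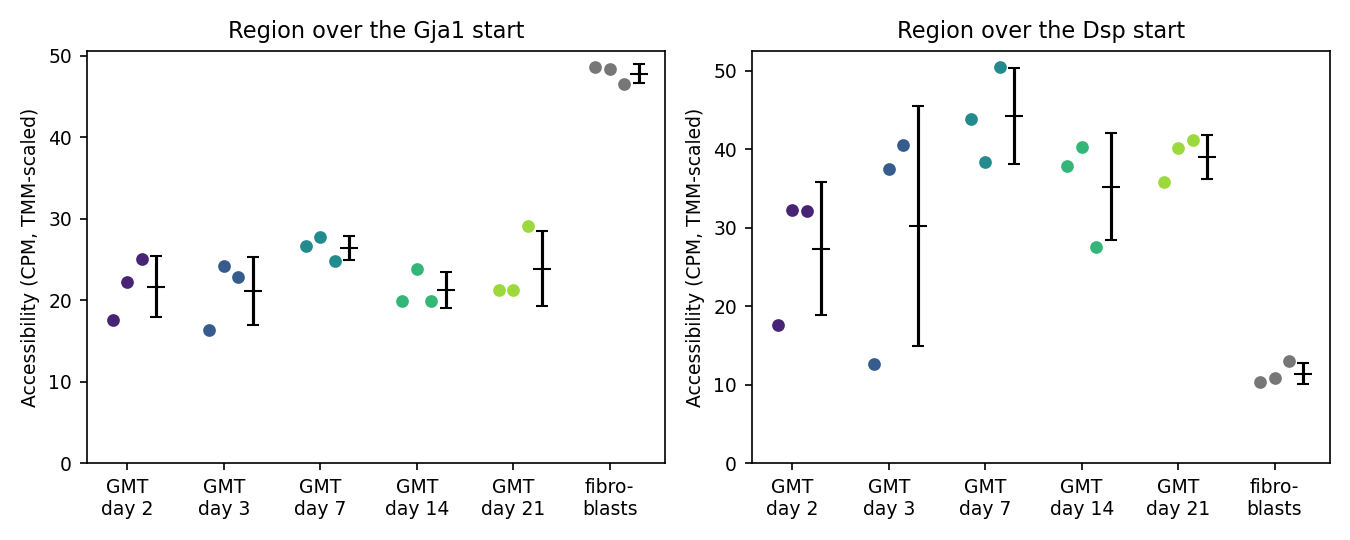
Accessibility of the region over each gene start in every library, in TMM-scaled CPM, for GMT cells at 5 times and for fibroblasts (points, libraries; bars, mean and SD, n = 3). At the Gja1 start all 15 GMT libraries lie below all 3 fibroblast libraries, and at the Dsp start 14 of 15 lie above them.

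The Gja1 start lay in a region of 3207 bases (chr10:56096099-56099306, reaching into the gene), the most accessible of the locus. Its level was 17.6, 22.2 and 25.1 CPM at day 2, 16.4, 24.2 and 22.9 CPM at day 3, 26.7, 27.8 and 24.9 CPM at day 7, 19.9, 23.8 and 20.0 CPM at day 14 and 21.3, 21.2 and 29.1 CPM at day 21 in GMT cells, against 48.6, 48.4 and 46.5 CPM in fibroblasts. Every GMT library was below every fibroblast library. Among the GMT times, the day 7 libraries were above those of days 3 and 14 and overlapped those of days 2 and 21 in range. The GMT libraries averaged 22.9 ± 3.61 CPM (SD, n = 15) and the fibroblast libraries 47.8 ± 1.16 CPM (SD, n = 3). The log2 fold change for the mean of the GMT times was -1.07 (SE 0.21, adjusted p 4.45e-05, edgeR). A fall of at least this depth was seen in 11.3% of all regions tested, so the Gja1 start was not among the steepest losses.

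The fall at the Gja1 start was already present at day 2 and was of similar size at later times. By edgeR's quasi-likelihood test, the log2 fold change over fibroblasts was -1.14 at day 2 (adjusted p 0.00329), -1.16 at day 3 (0.00204), -0.86 at day 7 (0.0212), -1.17 at day 14 (0.00191) and -0.996 at day 21 (0.00795). Day 21 differed from day 2 by 0.14 (SE 0.29, adjusted p 0.892), which is within the error. The call for the mean of the GMT times held without each of the 18 libraries in turn. With library totals alone in place of TMM, which moves the median of all regions up to 0.52, it was -0.68 (adjusted p 0.0436), and with no filter on low counts it was -0.62 (adjusted p 0.488). Single days were less firm. The day 7 call was lost without any 1 of its 6 libraries, with values of -0.88 to -0.69. The day 21 call was lost without fibroblast replicate 2 (-0.87) or 3 (-0.91) or day 21 replicate 1 (-0.78) or 2 (-0.78), and that at day 2 without fibroblast replicate 2 (-1.03) or day 2 replicate 1 (-0.90).

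The rest of the Gja1 gene held little accessible DNA, and its second called region lay next to the first. This region of 531 bases (chr10:56099396-56099927, at 2.66 kb) had a lowest value of 0.154, a median of 0.594 and a highest of 1.92 CPM in the GMT libraries, against 1.72 ± 0.092 CPM in fibroblasts (SD, n = 3). All but 1 of the 15 GMT libraries, day 2 replicate 1 at 1.92 CPM, were below all fibroblast libraries. Its log2 fold change was -1.26 (SE 0.43, adjusted p 0.0201, edgeR), on only 110 reads in GMT cells and 31 in fibroblasts. The call was lost without fibroblast replicate 1 (-1.24), 2 (-1.18) or 3 (-1.14) or day 21 replicate 2 (-1.07), and of the single days only day 7 was called (-1.68, adjusted p 0.0215).

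The third called region lay past the gene, at 39.1 kb (chr10:56134888-56137213). It had 3.01 ± 0.108 CPM at day 2, 3.36 ± 1.62 at day 3, 3.92 ± 0.694 at day 7, 3.54 ± 0.952 at day 14 and 5.07 ± 2.04 at day 21 in GMT cells, against 7.94, 10.6 and 2.16 CPM in the fibroblast libraries. Here the groups overlapped, because fibroblast replicate 3 was lower than 14 of the 15 GMT libraries. The log2 fold change was -0.99 (SE 0.26, adjusted p 0.00260, edgeR), and the call was lost without fibroblast replicate 1 (-0.90) or replicate 2 (-0.55).

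The other 10 tested Gja1 regions were not called at any day. Of these, 3 are named here after their values were seen, as the more accessible ones on either side of the gene. At -3.95 kb (chr10:56092498-56093600) GMT libraries had 4.26 ± 1.02 CPM (SD, n = 15) and fibroblasts 3.33 ± 1.67 CPM (SD, n = 3), a log2 fold change of 0.20 (SE 0.27). At -7.94 kb (chr10:56088210-56089913) the values were 4.81 ± 0.868 CPM in GMT cells and 5.74 ± 1.98 CPM in fibroblasts, a log2 fold change of -0.27 (SE 0.24). At 17.3 kb (chr10:56112174-56116476) they were 3.24 ± 0.697 CPM in GMT cells and 4.38 ± 1.68 CPM in fibroblasts, with -0.48 (SE 0.26). In all of these the difference was within the spread of the fibroblast libraries, and the sign changed under another scaling: with library totals alone the values at -7.94 and 17.3 kb were 0.24 and 0.065, and with a trended scaling that at -3.95 kb was -0.057.

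**Figure D2:**
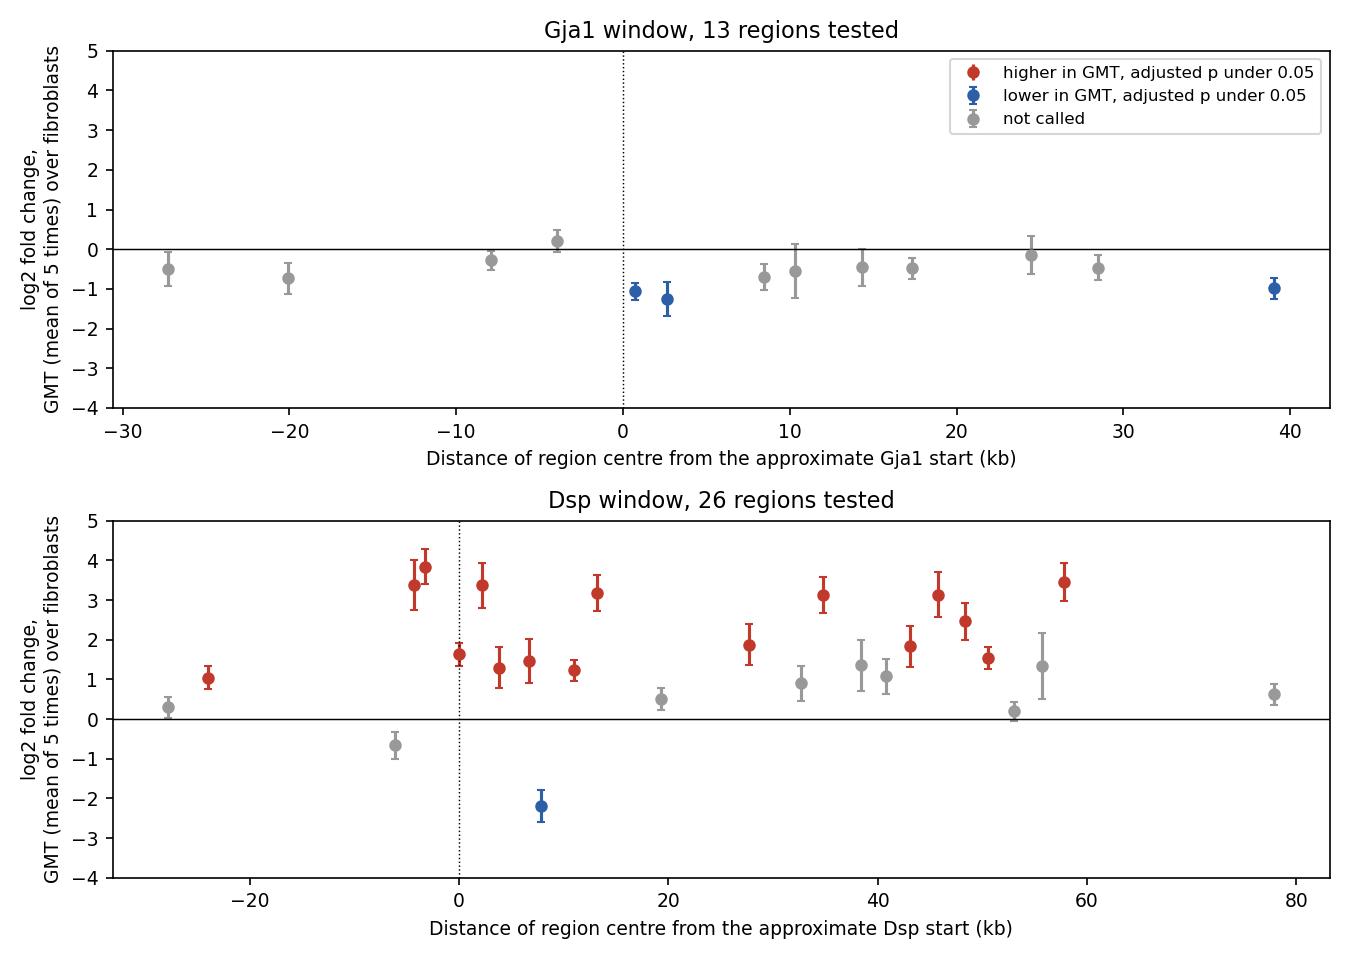
Log2 fold change of GMT cells (mean of 5 times) over fibroblasts for every tested region against its distance from the approximate gene start in kb (points, fitted values; bars, SE). Red and blue mark regions called higher and lower, grey those not called. At Gja1 the 3 called regions are lower, and at Dsp 16 are higher and 1, inside the gene, is lower.

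At Dsp the region over the start (chr13:38241964-38244950, 2986 bases) was the most accessible of the locus and about as wide as that at Gja1. GMT cells had 17.6, 32.3 and 32.2 CPM at day 2, 12.7, 37.4 and 40.6 CPM at day 3, 43.9, 38.4 and 50.5 CPM at day 7, 37.8, 40.3 and 27.6 CPM at day 14 and 35.9, 40.2 and 41.1 CPM at day 21, against 10.4, 10.9 and 13.0 CPM in fibroblasts. All GMT libraries but day 3 replicate 1, at 12.7 CPM, were above all fibroblast libraries. Day 2 replicate 1 and day 3 replicate 1 were well below the other libraries of their days. The mean was 35.2 ± 9.79 CPM in GMT cells (SD, n = 15) and 11.4 ± 1.37 CPM in fibroblasts (SD, n = 3), and the log2 fold change was 1.63 (SE 0.29, adjusted p 8.82e-06, edgeR). By day it was 1.29, 1.44, 1.97, 1.65 and 1.79 at days 2, 3, 7, 14 and 21, each called. It ranged from 1.29 to 2.10 over 27 alternatives to the processing and was called in all of them. Day 21 over day 2 was 0.50 (SE 0.32, adjusted p 0.534).

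Per kilobase of region, the Dsp start had 11.8 CPM in GMT cells and 3.82 CPM in fibroblasts, and the Gja1 start 7.13 CPM in GMT cells and 14.9 CPM in fibroblasts. By group means, the order of the start regions was thus the reverse in the groups, though not in day 3 replicate 1. The ratio of Dsp start to Gja1 start counts within a library needs no scaling between libraries. It was 0.774 to 2.03 in the 15 GMT libraries, lowest in day 3 replicate 1, and 0.214, 0.225 and 0.279 in the fibroblast libraries. As log2 it averaged 0.57 ± 0.37 in GMT cells (SD, n = 15) and -2.07 ± 0.20 in fibroblasts (SD, n = 3), with no overlap. This ratio was chosen after the values were seen and is given without a test.

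The steepest rise at Dsp lay just before the start, where fibroblasts had almost no reads. The region at -3.21 kb (chr13:38239921-38240663, 742 bases) had 4.48, 4.08 and 4.69 CPM at day 2, 4.48, 5.79 and 5.39 CPM at day 3, 5.81, 5.48 and 8.16 CPM at day 7, 6.28, 5.25 and 2.61 CPM at day 14 and 5.80, 6.15 and 9.50 CPM at day 21 in GMT cells, against 0.547, 0 and 0.360 CPM in fibroblasts. No GMT library came near the fibroblast libraries, which held 7 reads in all against 938 in GMT cells. The ratio of summed reads was 15.7 (95% exact binomial interval 7.59 to 39.2, which covers counting error only). Its log2 fold change was 3.84 (SE 0.44, adjusted p 1.09e-10, edgeR). The region passed the filter only through the GMT groups, and it was called under all 27 alternatives, no filter included, with values of 3.53 to 5.18. By day the value was 3.48, 3.77, 4.05, 3.68 and 4.23 at days 2, 3, 7, 14 and 21, each called. The neighbouring region at -4.28 kb (chr13:38238935-38239507) had 0.960 to 3.88 CPM in GMT libraries and 0.182, 0 and 0.360 CPM in fibroblasts, on 302 reads in GMT cells and 3 in fibroblasts. Its log2 fold change was 3.37 (SE 0.63, adjusted p 1.73e-05, edgeR), and the ratio of summed reads was 11.8 (95% exact binomial interval 4.0 to 57.5). This neighbouring region, too, passed the filter only through the GMT groups.

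Inside Dsp, several regions that were nearly closed in fibroblasts were open in GMT cells. They are named here after their values were seen, to show where along the gene the rises lie. At 2.25 kb (chr13:38245507-38245988) GMT libraries had 0.527 to 3.68 CPM and fibroblasts 0.182, 0.231 and 0.360 CPM, a log2 fold change of 3.37 (SE 0.57). At 13.2 kb (chr13:38255914-38257423) the 15 GMT libraries had 2.31 to 10.9 CPM and the fibroblast libraries 0.730, 0.463 and 0 CPM, with a log2 fold change of 3.17 (SE 0.45). At 34.8 kb (chr13:38277455-38279197) the values were 2.04 to 5.54 CPM in GMT cells and 0.365, 0.463 and 0.721 CPM in fibroblasts, with 3.12 (SE 0.45). At 45.8 kb (chr13:38288206-38290294) they were 0.815 to 4.56 CPM in GMT cells and 0.182, 0.463 and 0.360 CPM in fibroblasts, with 3.14 (SE 0.56). In these 4 regions all 3 fibroblast libraries were under the filter's 1.15 CPM, so they passed only through the GMT groups and were biased towards a rise. None of them overlapped between GMT cells and fibroblasts, where 8.71% of all regions tested lay wholly above. Each was called higher at every time, against 7.12% of all regions. The region at 11 kb (chr13:38253421-38255624) differed in that it was already open in fibroblasts. It had 13.6 ± 3.81 CPM in GMT cells (SD, n = 15) and 5.70 ± 1.90 CPM in fibroblasts (SD, n = 3), a log2 fold change of 1.23 (SE 0.26, adjusted p 0.000129, edgeR).

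A single region inside Dsp went the other way. At 7.87 kb (chr13:38251033-38251713) GMT libraries had a lowest value of 0, a median of 0.543 and a highest of 2.24 CPM, and fibroblast libraries had 2.10, 3.70 and 2.88 CPM. All GMT libraries but day 2 replicate 1, at 2.24 CPM, were below all fibroblast libraries. The log2 fold change was -2.19 (SE 0.40, adjusted p 1.28e-05, edgeR), on 98 reads in GMT cells and 47 in fibroblasts, and the region was called lower at each day. The day 2 call (-1.71, adjusted p 0.0239) was lost without fibroblast replicate 2 (-1.37) or 3 (-1.60) or day 2 replicate 2 (-1.53) or 3 (-1.11). The day 21 call (-1.78, adjusted p 0.00731) was lost without fibroblast replicate 2 (-1.42) or day 21 replicate 2 (-1.46). Over all alternatives, the day 2 call was lost in 8 of 16, with values of -2.30 to -1.04, and the day 21 call in 4 of 15, with values of -2.05 to -1.26. When low counts were left in, the day 3 (-1.97, adjusted p 0.0752) and day 7 (-1.46, adjusted p 0.288) calls were lost too, while the call for the mean of the GMT times held in all 27 alternatives. It lies between the regions at 6.73 kb and 11 kb, both of which were called higher for the mean of the GMT times. The region at 6.73 kb (1.46, SE 0.55, adjusted p 0.0337, edgeR) passed the filter only through the GMT groups. It was called higher at only 2 of the times. The opposite direction of the neighbours thus rests on the region at 11 kb, which was open in fibroblasts too.

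The rise continued past the end of Dsp, but not in every region. Across the gene end, at 48.4 kb (chr13:38290585-38293212), GMT cells had 9.99 ± 4.47 CPM at day 2, 9.25 ± 4.83 at day 3, 6.29 ± 1.18 at day 7, 5.21 ± 2.53 at day 14 and 5.60 ± 3.52 at day 21, against 1.15 ± 0.685 CPM in fibroblasts (SD, n = 3 each). Its log2 fold change was 2.47 (SE 0.47, adjusted p 0.000130, edgeR). On the library totals that the filter used, all 3 fibroblast libraries were under its level, so this region passed only through the GMT groups. The region that follows, at 50.5 kb (chr13:38293225-38294794), had 9.52 ± 2.56 CPM in GMT cells (SD, n = 15) and 3.25 ± 0.427 CPM in fibroblasts (SD, n = 3), with a log2 fold change of 1.53 (SE 0.28). At 53.0 kb (chr13:38295476-38297504) lay a region that was open in both groups. It had 19.5 ± 5.14 CPM in GMT cells (SD, n = 15) and 17.0 ± 1.59 CPM in fibroblasts (SD, n = 3), a log2 fold change of 0.20 (SE 0.24, adjusted p 0.568, edgeR) that was -0.17 under the trended scaling. These 3 regions were also named after their values were seen.

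Further on, at 57.9 kb (chr13:38300902-38301802), lay the second steepest rise of the locus. GMT cells had 5.76, 4.08 and 6.52 CPM at day 2, 5.80, 3.32 and 4.09 CPM at day 3, 3.76, 4.11 and 7.16 CPM at day 7, 3.24, 2.47 and 1.90 CPM at day 14 and 3.34, 3.39 and 2.16 CPM at day 21, against 0.182, 0.463 and 0.721 CPM in fibroblasts. The region passed the filter only through the GMT groups and was thus biased towards a rise over fibroblasts. Every GMT library was above every fibroblast library, as in 8.71% of all regions tested. Within GMT cells, all 6 libraries of days 14 and 21 were below all but 1 of the libraries of days 2, 3 and 7. The log2 fold change over fibroblasts was 3.44 (SE 0.48, adjusted p 2.35e-08, edgeR) for the mean of the GMT times.

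**Figure D3:**
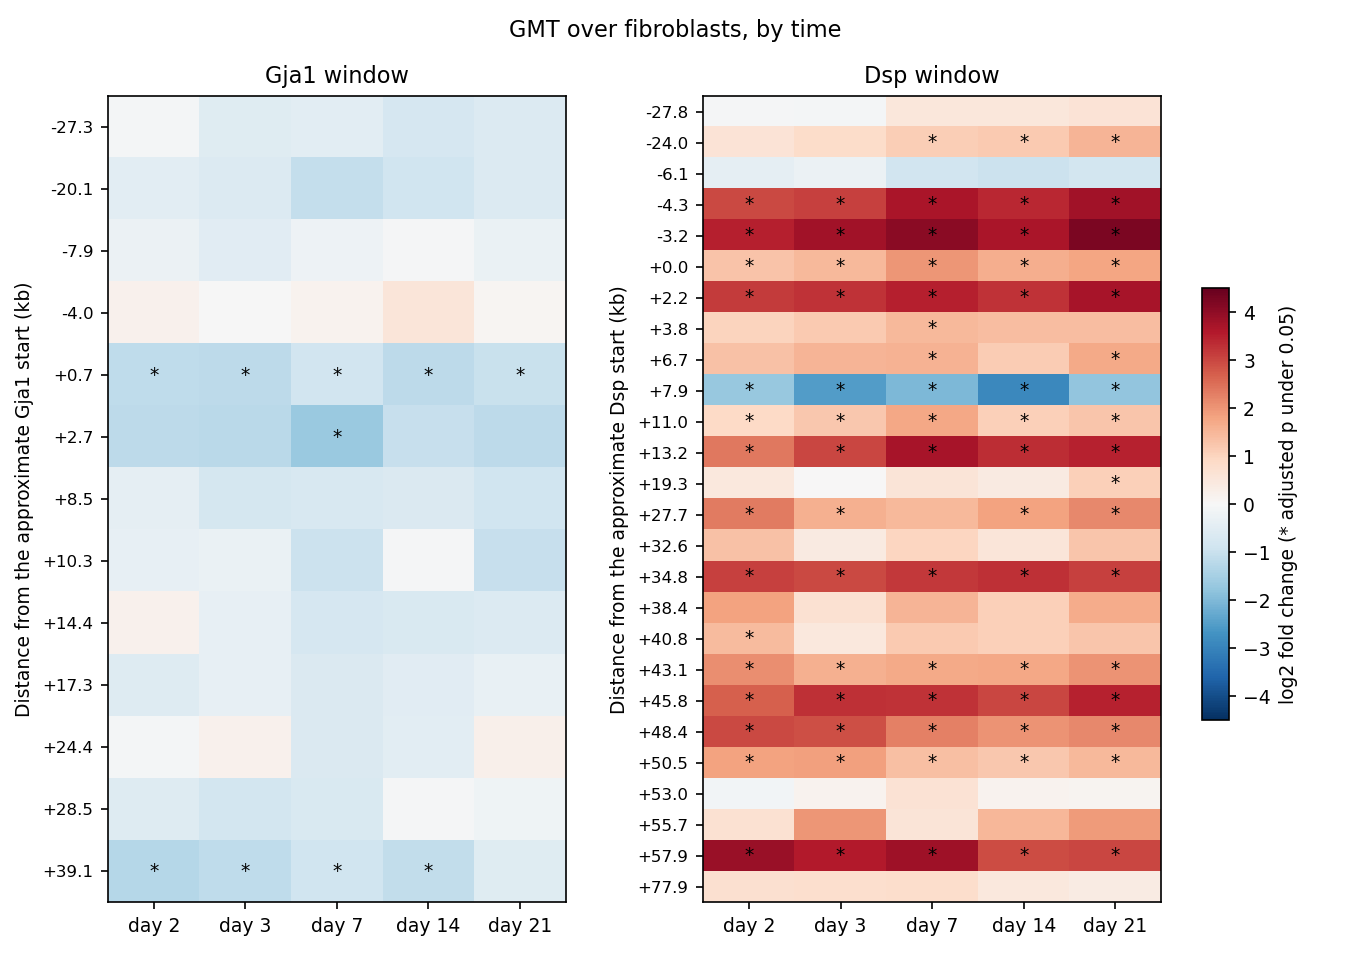
Log2 fold change over fibroblasts at each time (columns) for every tested region (rows, by distance in kb from the approximate gene start); red is higher and blue lower in GMT cells, and an asterisk marks an edgeR adjusted p under 0.05. The Dsp rows hold 12 regions called higher at all 5 times, and the Gja1 rows 1 called lower at all 5.

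The number of Dsp regions called over fibroblasts changed little from day 2 on. The Dsp regions called higher numbered 14 at day 2, 13 at day 3, 15 at day 7, 14 at day 14 and 16 at day 21, with 1 called lower each time. Over all regions tested, 12.2, 13.2, 15.5, 12.8 and 13.3% were called higher at those days, and 8.09, 8.84, 12.0, 9.7 and 10.1% lower. At Gja1, 0 of 13 regions were called higher at any day, and 2, 2, 3, 2 and 1 were called lower. DESeq2 also called 0 Gja1 regions higher at each day, whereas scaling by library totals alone called that at -3.95 kb higher at day 14 (1.13, SE 0.42, adjusted p 0.0343, edgeR). Of the 26 Dsp regions, 12 were called higher at all 5 times, 6 at 1 to 4 times, 1 was lower at all times and 7 were never called. A region called higher at all 5 times made up 7.12% of all regions tested, and one called lower at all 5 times 4.55%. In 10 Dsp regions all 15 GMT libraries were above all 3 fibroblast libraries, against 8.71% of all regions. In 1 Gja1 region, that over the start, all were below, against 7.11% of all regions. Because many of the 26 Dsp regions could pass the filter only through the GMT groups, the Dsp counts here do not bear on the direction of the locus.

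Between GMT times little of this passed the test. For day 21 over day 2, edgeR called 0 regions at both loci, with a lowest adjusted p of 0.124 at Dsp and 0.397 at Gja1. At an unadjusted p under 0.05 there were 6 such regions at Dsp and 0 at Gja1, and DESeq2 called 0 at both. Over all regions 0.572% were called higher and 0.871% lower. For days 14 and 21 over days 2 and 3, where 2.5% of all regions were called higher and 3.66% lower, edgeR called 1 Dsp region lower and 0 Gja1 regions, and DESeq2 0 at both. At an unadjusted p under 0.05 there were 7 at Dsp and 1 at Gja1. The Dsp region was that at 57.9 kb, with a log2 fold change of -0.76 (SE 0.24, adjusted p 0.0378, edgeR). Between consecutive times edgeR and DESeq2 called 0 regions at both loci, although 2, 1, 2 and 1 Dsp regions, and 0 Gja1 regions at each step, had an unadjusted edgeR p under 0.05. Over all regions, 0.00138% were called higher and 0.00691% lower for day 7 over day 3, and 0 at the other steps.

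Some Dsp regions differed between the GMT times only under other settings. At -24.0 kb (chr13:38217869-38221229, named after its values were seen) GMT cells had 3.25 ± 0.723 CPM at day 2, 3.61 ± 0.745 at day 3, 4.56 ± 0.264 at day 7, 4.61 ± 0.883 at day 14 and 6.17 ± 1.20 at day 21, against 2.12 ± 0.384 CPM in fibroblasts (SD, n = 3 each). Over fibroblasts it was called at days 7, 14 and 21 and not at days 2 and 3. The difference between days 21 and 2 was 0.91 (SE 0.31, adjusted p 0.124, edgeR), so a call at one time and not at another is no difference between them here. The call for the mean of the GMT times (1.04) was lost without fibroblast replicate 1 (0.97). The region at 13.2 kb had a day 21 over day 2 value of 1.08 (SE 0.37, adjusted p 0.126, edgeR), and that at the gene end, at 48.4 kb, had -0.83 for the late over the early days (SE 0.28, adjusted p 0.0816). For days 14 and 21 over days 2 and 3, the trended scaling called the regions at -24.0 kb (0.66, adjusted p 0.04, edgeR) and -27.8 kb (0.69, adjusted p 0.0457, also named after its values were seen) higher. The region at 13.2 kb was called higher without day 3 replicate 1 (0.80, adjusted p 0.0306) or day 14 replicate 3 (0.86, adjusted p 0.0217), and that at -27.8 kb without day 3 replicate 3 (0.83, adjusted p 0.035). The region at 48.4 kb was called lower without day 2 replicate 1 (-0.95, adjusted p 0.0305), day 3 replicate 1 (-0.98, adjusted p 0.00357) or day 21 replicate 3 (-1.18, adjusted p 0.00498).

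**Figure D4:**
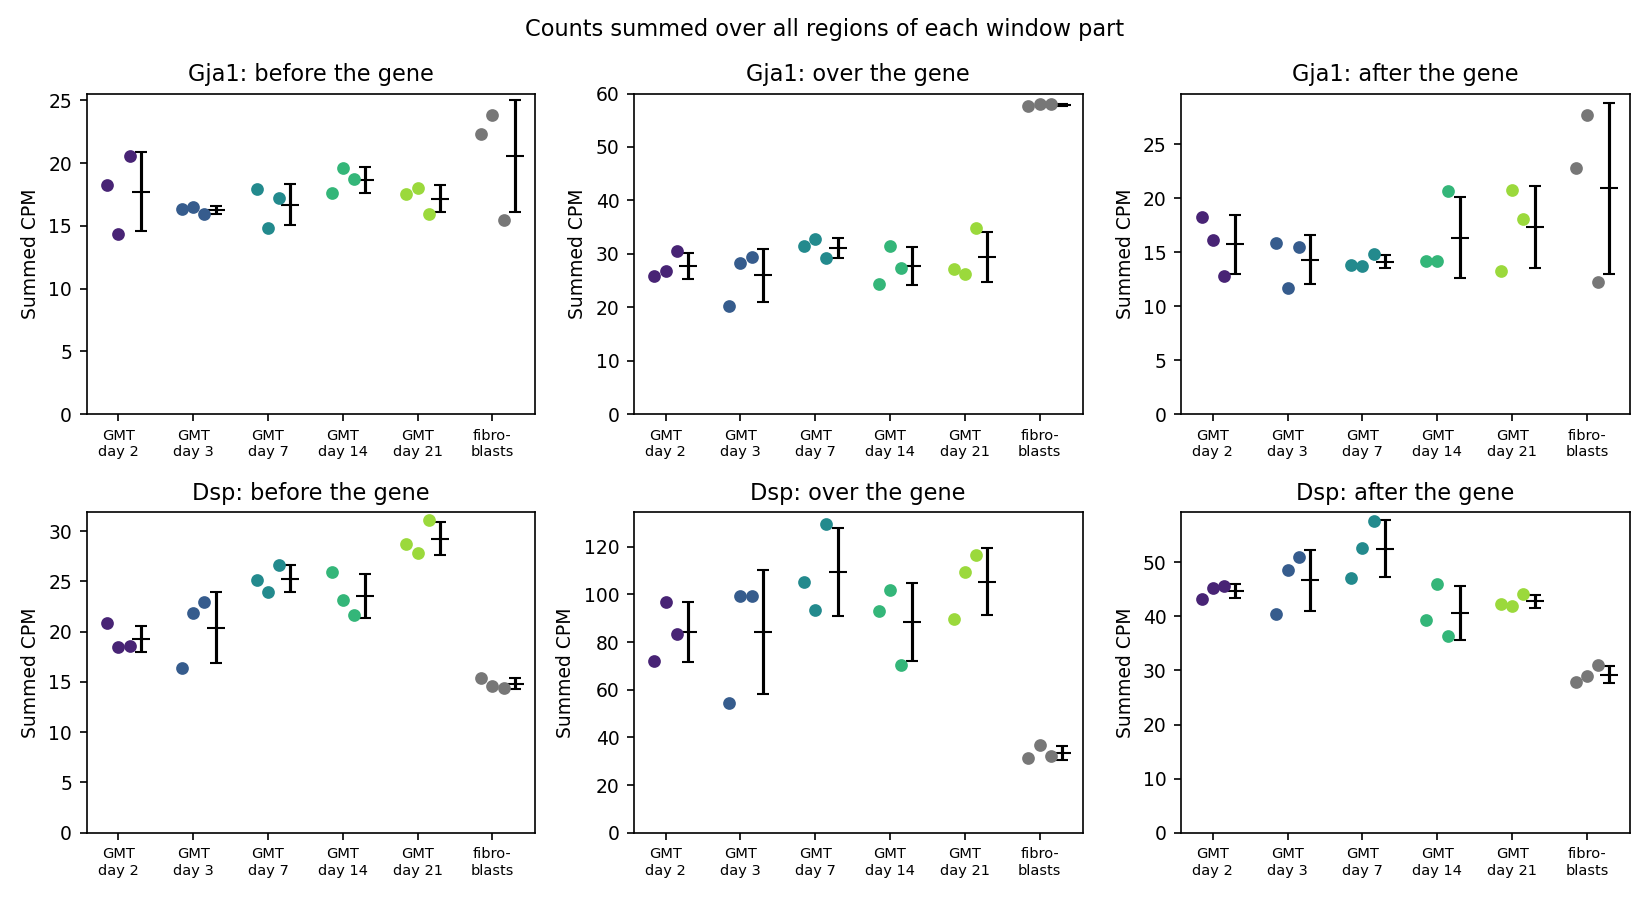
Counts summed over all regions before, over and after each gene, in TMM-scaled CPM, for GMT cells at 5 times and fibroblasts (points, libraries; bars, mean and SD, n = 3). Over the Gja1 gene the fibroblast libraries lie near 57.9 CPM, above all GMT libraries, and over the Dsp gene they lie near 33.5 CPM, below all GMT libraries.

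Sums over every region of a window, tested or not, are given without a test. At Gja1 much of the sum and of its fall came from the start region, so the sum does not show a change along the whole locus. The Gja1 window held 61.3 ± 3.46 CPM at day 2, 56.6 ± 4.11 at day 3, 61.9 ± 1.16 at day 7, 62.8 ± 5.70 at day 14 and 63.9 ± 5.53 at day 21 in GMT cells, against 99.4 ± 12.3 CPM in fibroblasts (SD, n = 3 each). All 15 GMT libraries were below all 3 fibroblast libraries. The Dsp window held 148 ± 12.3, 151 ± 35.0, 187 ± 23.5, 153 ± 21.9 and 177 ± 15.6 CPM at days 2, 3, 7, 14 and 21 in GMT cells, against 77.6 ± 2.90 CPM in fibroblasts, and all 15 GMT libraries were above. The Dsp window was 2.11-fold and the Gja1 window 0.616-fold as accessible in GMT cells as in fibroblasts.

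The parts of the windows differed in how far they changed. Over the Gja1 gene the sum was 28.4 ± 3.61 CPM in GMT cells (SD, n = 15) and 57.9 ± 0.178 CPM in fibroblasts (SD, n = 3), with no overlap. Before the gene it was 17.3 ± 1.70 CPM in GMT cells and 20.6 ± 4.45 CPM in fibroblasts, and after the gene 15.6 ± 2.75 CPM in GMT cells and 20.9 ± 7.92 CPM in fibroblasts. On both sides the groups overlapped, and fibroblast replicate 3 was lower than the other fibroblast libraries. Over the Dsp gene the sum was 94.3 ± 18.9 CPM in GMT cells and 33.5 ± 3.04 CPM in fibroblasts, 2.81-fold as high. Before it the sum was 23.5 ± 4.11 CPM in GMT cells and 14.8 ± 0.538 CPM in fibroblasts, and after it 45.4 ± 5.48 CPM in GMT cells and 29.2 ± 1.61 CPM in fibroblasts. In each part of the Dsp window all 15 GMT libraries were above all 3 fibroblast libraries.

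For each locus, the regions elsewhere in the table whose levels followed it most closely were looked up, over the 18 libraries and by Pearson's r of log2 CPM. The values describe libraries that share depth and group, and carry no test. The Gja1 start was most like chr10:122347669-122351327 (r 0.976) and chr12:27570078-27571762 (r 0.949). The Dsp start was most like chr14:57675227-57677597 (r 0.977) and chr12:77809120-77812107 (r 0.975). The Dsp region at -3.21 kb was most like chr13:52926428-52928278 and chr11:22805846-22807543, both with r of 0.984. The Gja1 region at 2.66 kb, the locus's largest fall, was followed less closely, at r of 0.851 by chr11:7129503-7130623 and 0.841 by chr13:113206081-113209300.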

How the data were processed

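ATAC-seq counts were analysed for 18 of the 36 samples in the labels. The other 18 were not analysed here. The authors deposited raw read counts per region, as whole numbers without normalization, in build mm9. Per the submitters' processing notes the tools were Bowtie2, Picard, MACS2 and edgeR. Not given in the sources used here are their settings, the offset for transposase insertion, and whether the caller saw pooled or single libraries. How duplicates were treated and where region borders were set bear on every count. One incomplete line was left out.

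Groups came from the sample titles. Regions were kept by filterByExpr (minimum count 10, minimum total 15), scaled by TMM and fitted together with 1 mean per group in edgeR 4.0.16 under R 4.3.3 (robust glmQLFit, leaving 12 residual degrees of freedom). Tests were two-sided glmQLFTest, adjusted by Benjamini-Hochberg over 144810 regions. The test was also run on counts simulated with changes at day 2 only and the same spread in all libraries, a simpler setting than these data. The members, lists and tests were chosen with earlier results of these data known. By rule, the text names per locus the regions within 1 kb of the start, the 3 largest called rises and falls, the most accessible region and those called between times. Regions outside this rule are marked as named after their values were seen. The alternatives were other scalings, other filters, an adjusted p of 0.01, DESeq2 1.42.0, a fit of only the groups compared, a replicate block and leaving out libraries. A trended scaling (loess, span 0.3) and summing fibroblast replicates 1 and 2 were added after the data were seen. The difference between those 2 libraries was above the noise of sampling (1.36 as chi-square over its degrees of freedom, against 2.08 for the next closest pair), and each was counted. Against fibroblast replicate 3 they had 12.2 and 13.6. An excess over sampling noise does not show that the 2 came from separate cultures, which the labels do not state. Leaving out 1 of them keeps its closest match in the fit. Reads carry no molecular identifiers, so intervals cover counting error only. The planned list of other junction genes was not analysed here, because no annotation of build mm9 was used.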

Additional observations from a re-analysis of the deposited data

Results flagged for a closer look

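The Dsp region at 57.9 kb (chr13:38300902-38301802) differed between GMT times by the test of the difference itself, the only region of both loci to do so with the settings of the report. Its log2 fold change for days 14 and 21 over days 2 and 3 was -0.76 (SE 0.24, adjusted p 0.0378, edgeR's quasi-likelihood test). The mean was 2.54 ± 0.672 CPM at day 14 and 2.96 ± 0.696 CPM at day 21, against 5.45 ± 1.25 CPM at day 2 and 4.41 ± 1.27 CPM at day 3 (SD, n = 3 each). The call was lost in 14 of 21 alternatives, with values of -0.89 to -0.64 and adjusted p of 0.0268 to 0.859. At all 5 times its GMT libraries were above all fibroblast libraries, but the region passed the filter only through the GMT groups.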

How the results depend on the processing

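The main directions held: the log2 fold changes of both start regions kept their sign under all 27 alternatives. Counts of called regions at Gja1 were small and moved with most settings. With library totals alone, they were 0 at days 2, 3, 7 and 21, 1 at day 14, a rise at -3.95 kb, and 1 for the mean of the GMT times, the fall at the start. With no filter they were 0 at days 2, 3, 14 and 21 and for the mean, and 1 at day 7. At an adjusted p of 0.01 they were 1 at days 2, 3 and 14 and 0 at day 7. With fibroblast replicates 1 and 2 summed they were 1 at days 2, 7 and 14 and 0 at day 21. A fit of only the groups compared gave 6 at day 7 and 2 at day 21, DESeq2 gave 1 at day 14, and a minimum of 1 CPM in 3 libraries gave 5 for the mean. Without day 2 and day 3 replicate 1 there were 4 at day 2, 5 at day 7 and 5 for the mean. For Dsp, days 14 and 21 over days 2 and 3 gave 0 calls with library totals, DESeq2, no filter or an adjusted p of 0.01, 2 with the trended scaling, both higher, against the 1 lower call reported, and 2 without day 2 and day 3 replicate 1, 1 higher and 1 lower, which also gave 1 higher call for day 21 over day 2. The cause was not tested.

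With library totals alone, the log2 ratio of the Gja1 window sum was -0.28 for the mean, -0.16 at day 2, -0.37 at day 3, -0.27 at day 14 and -0.12 at day 21, and that of the Dsp window sum 1.44, 1.43, 1.34, 1.35 and 1.66. Signs turned for the Gja1 regions at 39.1 kb at day 21 (0.16 with library totals), -7.94 kb (0.24 with library totals, 0.17 with no filter, and, without 1 library at a time, -0.35 to 0.088, the last without fibroblast replicate 2), 17.3 kb (0.065 with library totals) and -3.95 kb (-0.057 with the trended scaling), and for the Dsp region at 53.0 kb (-0.17 with the trended scaling).

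Leaving out 1 library at a time, the calls at Gja1 ranged from 0 to 2 at day 2, 1 to 3 at day 3, 0 to 2 at day 7, 1 to 2 at day 14, 0 to 1 at day 21 and 1 to 5 for the mean. At Dsp they ranged from 10 to 18, 12 to 17, 12 to 17, 11 to 15 and 15 to 24 at days 2, 3, 7, 14 and 21, from 12 to 21 for the mean, and from 0 to 2, in both directions, for days 14 and 21 over days 2 and 3. The window sums ranged from -0.71 to -0.51 for the mean, -0.71 to -0.53 at day 2, -0.88 to -0.65 at day 3, -0.69 to -0.45 at day 7, -0.70 to -0.52 at day 14 and -0.69 to -0.43 at day 21 at Gja1, and from 1.05 to 1.22, 0.91 to 1.11, 0.85 to 1.26, 1.18 to 1.46, 0.95 to 1.20 and 1.14 to 1.40 at Dsp. Taken over all groups, same-numbered libraries did not deviate together (45 pairs, correlations of -0.16 to 0.32, 2 over 0.1, 4 of 18 libraries most like one of their own number). The 2 over 0.1 were both between days 2 and 3, at 0.32 for replicate 1 and 0.21 for replicate 2. Day 2 replicate 2 and day 3 replicate 3 had 0.22. The numbers thus do not pair the samples throughout, and a shared origin of day 2 and day 3 libraries was not tested. With a replicate block Gja1 had 2 calls at day 21, and no other count moved by over 1.5 times. Depth limits the regions that are nearly closed in fibroblasts, where 3 to 10 reads set the lower level.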
